A study of Mus musculus with 12 samples.

Results

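The collagen alpha chains are the subunits of the collagens, and 44 of the 34745 genes in the deposited table carry a collagen alpha chain symbol (Col, a type number, a and a chain number). They were read in 3 classes: 11 fibrillar genes (types I, II, III, V, XI, XXIV and XXVII), 8 basement membrane genes (type IV and the multiplexins Col15a1 and Col18a1) and 25 others. The RNA came from medial prefrontal cortex (mPFC). The mice were wild-type males, sampled 28 days after chronic constriction injury (CCI) of a sciatic nerve or, in naive mice, after habituation with no treatment. There were 4 libraries each of the ipsilateral (left) mPFC of CCI mice, of the contralateral (right) mPFC of CCI mice and of naive mPFC of unlabelled side. The controls are thus unoperated mice, and effects of the surgery and of the nerve injury cannot be told apart. The library codes of CCI samples hold a number from 1 to 4 and the letter L or R. Right and left libraries with one number are set side by side below, although the labels do not say that a number is one mouse, nor that naive libraries come from separate mice, so p-values measure the spread between libraries.

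Each collagen molecule is a trimer of alpha chains wound into a triple helix. Fibrillar chains build the fibres of connective tissue. Those of types I and III are, in the brain, made mostly by fibroblasts of the meninges and around vessels, which is not said here of the other fibrillar types. Type IV chains form the sheet of the basement membrane under endothelium. Other collagens sit on fibril surfaces, form beaded filaments (type VI) or span the cell membrane, and some of these, such as Col25a1 and Col19a1, are known from neurons.

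Total counts were between 16.1 and 20.6 M (mega-counts) per library, and the collagen genes took between 0.0947% (ipsilateral 4) and 0.126% (contralateral 4) of them. Neuronal markers of cortex were abundant in every library (8 genes, 4813 to 6618 CPM in sum), and markers of striatal neurons reached 303 CPM in contralateral 1 and lay between 128 and 175 CPM elsewhere. CPM are counts per mega-count, scaled with TMM factors. Of the 44 collagens, 42 passed the filter on low counts and were tested; Col8a2 (0.16 to 1.00 CPM) and Col10a1 (0 to 0.39 CPM) did not. In bulk tissue, fewer cells of a type and less RNA per cell cannot be told apart.

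For orientation, upstream sequence is shown for 4 genes on which the results below turn: Col1a2 and Col3a1, chains of interstitial fibres that took the same pattern across CCI libraries, Col28a1, whose fold change had the smallest unadjusted p among collagens against naive cortex, and Col6a1, the collagen of highest level. The stretches come from the RefSeq promoter table (GRCm38.p6), 35 of 44 members being in it, and hold the part of the 250 bases before the start that lies outside exons of GENCODE M21. Capitals mark the motifs searched on both strands, the CCAAT box, the GC box (GGGCGG) and the TATA box (TATAAA), and no matches overlapped in these stretches. For Col1a2 and Col6a1 the RefSeq start lies inside a longer GENCODE gene model, and 127 and 124 of the 250 bases lie in exons. The Col6a1 stretch thus leaves out the bases next to its RefSeq start.
Col1a2, chr6:4505370-4505492 (+ strand): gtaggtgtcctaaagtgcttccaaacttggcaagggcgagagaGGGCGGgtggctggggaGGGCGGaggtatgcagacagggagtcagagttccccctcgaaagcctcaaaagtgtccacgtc
Col3a1, chr1:45311288-45311537 (+ strand): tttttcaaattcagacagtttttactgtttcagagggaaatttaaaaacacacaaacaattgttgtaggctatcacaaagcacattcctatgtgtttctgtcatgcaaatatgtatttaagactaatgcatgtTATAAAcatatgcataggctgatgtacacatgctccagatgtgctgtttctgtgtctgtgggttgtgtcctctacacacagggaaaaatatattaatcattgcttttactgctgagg
Col28a1, chr6:8192618-8192867 (- strand): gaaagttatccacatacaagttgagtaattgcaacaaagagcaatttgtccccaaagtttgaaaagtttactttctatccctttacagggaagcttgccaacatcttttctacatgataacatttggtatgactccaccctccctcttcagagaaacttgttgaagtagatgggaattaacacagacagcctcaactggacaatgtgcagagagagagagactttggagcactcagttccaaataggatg
Col6a1, chr10:76726169-76726294 (- strand): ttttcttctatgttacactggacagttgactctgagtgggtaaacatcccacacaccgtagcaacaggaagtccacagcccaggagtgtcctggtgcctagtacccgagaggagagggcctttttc

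Col1a2 held 2 matches to GGGCGG, Col3a1 held 1 to TATAAA, and the stretches of Col28a1 and Col6a1 held no match to any of the 3. Over the whole 250 bases, GGGCGG was in 21 of 35 collagen windows (60.0%) and in 32.9% of 27025 windows of all genes. CCAAT was in 12 of 35 (34.3%, against 34.5% of all genes) and TATAAA in 5 of 35 (14.3%, against 13% of all genes). These are letter matches and say nothing of a factor.

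Levels of different collagens were compared on the deposited FPKM values, which are scaled by gene length, as means over all 12 libraries. Col6a1, the alpha 1 chain of the beaded filament collagen type VI, stood first at 60.8 FPKM, above 96.7% of the 15808 tested genes. The type IV chains Col4a2 (19.8 FPKM) and Col4a1 (13.1 FPKM) followed, then Col5a1 (10.3 FPKM), a chain of the thin type V fibrils. Col6a2 (5.78), the fibril-associated Col16a1 (5.39), the type XI chain Col11a2 (5.34), the fibril-associated Col12a1 (3.56) and the membrane-spanning Col25a1 (3.36) and Col23a1 (3.11) were the other members above 3 FPKM. The type I chains that dominate skin and bone were low on this scale, Col1a2 at 0.80 and Col1a1 at 0.74 FPKM, and Col3a1 was at 0.17 FPKM. Such ranks depend on the length of the gene model. Col1a2 had a mean of 230 counts, more than Col9a3 (192 counts, 1.88 FPKM). In sum the classes held 23.1% (basement membrane), 15.6% (fibrillar) and 61.3% (other) of collagen FPKM, most of the last being Col6a1.

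**Figure D1:**
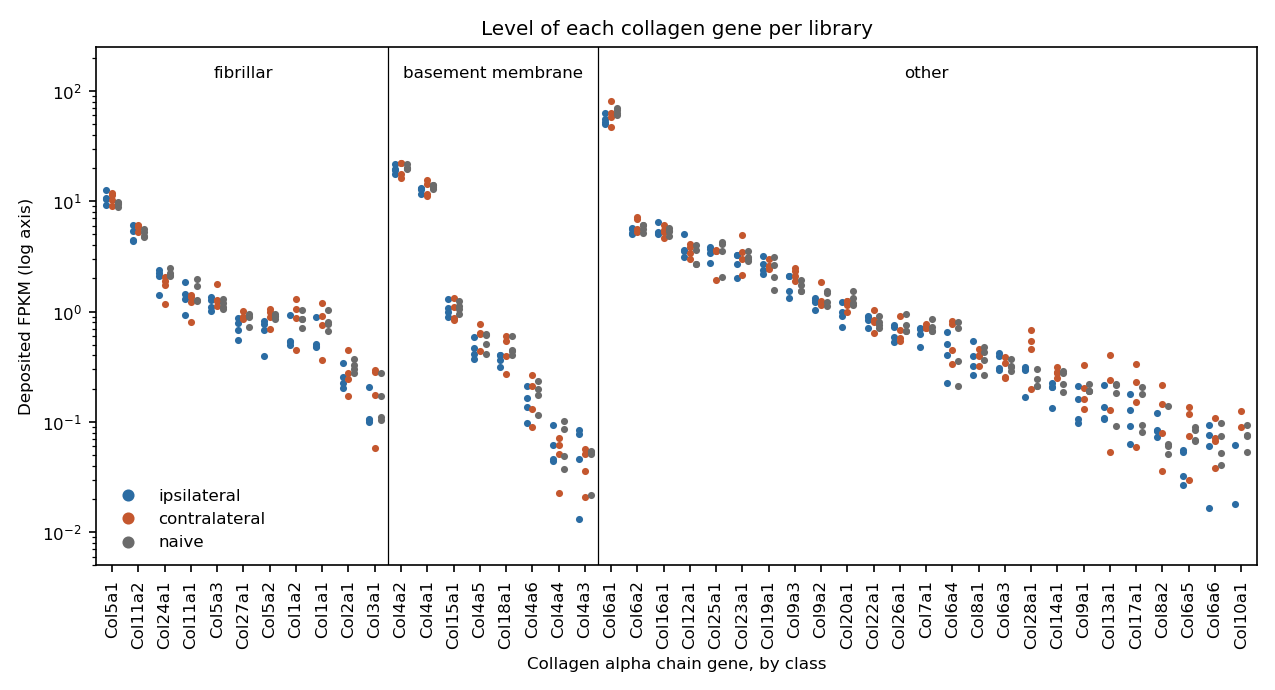
Deposited FPKM of the 44 collagen genes on a log axis, 1 point per library, coloured by group and ordered by class and mean level; values of 0, which only Col10a1 has, are not drawn. Col6a1 lies above all others, at a mean of 60.8 FPKM, followed by Col4a2 (19.8) and Col4a1 (13.1).

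Chains of one collagen type were not at equal levels in FPKM, which depends on the length set for each gene model. The ratio of Col4a1 to Col4a2, the chains of the common type IV trimer, spanned the narrowest range of 9 pairs examined, with a median of 0.66 and a range of 0.60 to 0.72 over the 12 libraries. These genes lie head to head on chromosome 8 (Col4a1 11198423 to 11312826, Col4a2 11312805 to 11449287, GRCm38/mm10), and their gene models share 22 bases. The ratio of Col1a1 to Col1a2 was 0.90 (0.78 to 1.13). Type VI was uneven: Col6a1 was 10.8 times Col6a2 (9.01 to 12.2) and 180 times Col6a3 (132 to 319). Without length scaling these pairs looked different. Mean counts were 91.2 for Col1a1 and 230 for Col1a2, and 4863 for Col6a1 and 863 for Col6a2. The FPKM ratios are thus no measure of chain proportions free of the gene model. Col5a1 stood at 12.3 times Col5a2, with 23.3 in ipsilateral 4 at the top, and Col11a2 at 3.798 times Col11a1, with 7.41 in contralateral 1.

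Variation between libraries differed by gene. Over all 12 libraries the coefficient of variation of CPM was 9.4% for Col4a1, 9.5% for Col16a1 and 10% for Col4a2. Counting error alone gives 2.5%, 3.3% and 2.0% for them. The coefficient was 33.2% for Col1a1, 32.3% for Col1a2 and 48.9% for Col3a1, where counting error alone gives 10.5%, 6.6% and 17.7%. All of these genes thus varied by more than counting error. Col6a4, another type VI chain gene, varied by 42.2% and already ranged from 2.0 to 7.53 CPM within naive libraries. Col25a1 was at 28.4 CPM in naive 1 and 26.7 CPM in contralateral 3, and between 38.4 and 59.2 CPM in the other 10 libraries.

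The hemispheres of CCI mice were compared first. No collagen passed (0 of 42 at a Benjamini-Hochberg adjusted p under 0.05 in edgeR, beside 0.0% of all tested genes), and none passed in DESeq2 or limma voom. At an unadjusted p under 0.05 there were 5 of 42 in edgeR, against 8.36% of all genes, and 6 in DESeq2 and 4 in limma voom. Here and in the comparisons with naive cortex, that share was taken in edgeR only. The DESeq2 and limma voom counts thus have no share of all genes to be set against. All 5 in edgeR were higher on the contralateral side, where 4.58% of all genes were, namely the fibrillar Col27a1 and Col5a2 and the others Col14a1, Col28a1 and Col6a5. By direction, 29 of 42 had a positive fold change (contralateral over ipsilateral), against 51.1% of all genes, with a median log2 fold change of 0.17, where all tested genes had 0.005. The class medians were 0.18 (fibrillar, 8 of 11 positive), 0.00 (basement membrane, 4 of 8) and 0.19 (other, 17 of 23). Without contralateral 4 the median was 0.05, 24 of 42 were positive and no collagen had an unadjusted p under 0.05, with class medians of 0.16 (fibrillar), -0.07 (basement membrane) and 0.03 (other). The fibrillar median was 0.28 without ipsilateral 1 or ipsilateral 3 and 0.31 without contralateral 2, and the basement membrane median reached 0.07 without contralateral 2. In the same comparison the fold changes of fibroblast markers were positive in 10 of 11 (median 0.48), of endothelial markers in 8 of 8 (0.19), of mural markers in 7 of 8 (0.21), of astrocyte markers in 6 of 6 (0.28), of microglia markers in 6 of 6 (0.23) and of cortical neuron markers in 0 of 8 (-0.21). Positive fold changes were also found in 5 of 5 blood markers (0.24) and 6 of 6 oligodendrocyte markers (0.10). The same held for 5 of 6 striatal markers (0.69) and for 2 of 2 tested choroid plexus markers (0.63). No marker passed, and the part of these differences in the collagen values was not tested.

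Set by CCI number, right and left libraries differed in different ways. In number 4 the right library was higher in 34 of 42 collagens (median difference 0.50 in log2 CPM), beside 51.1% of all genes. In number 1 it was higher in 23 of 42 (median 0.08, all genes 50.2%) and in number 3 in 24 of 42 (median 0.04, all genes 48.7%). In number 2 it was higher in only 17 of 42 (median -0.10, all genes 50.6%). Basement membrane genes were higher on the right in 3, 1, 6 and 6 of 8 for numbers 1 to 4. The right library was above the left in all 4 numbers for 4 collagens, Col5a2, Col9a3, Col7a1 and Col14a1, against 6.41% of all genes, with Col5a2 equal to 3 digits in number 3, and below it in all 4 for Col6a3 (6.33% of all genes).

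**Figure D2:**
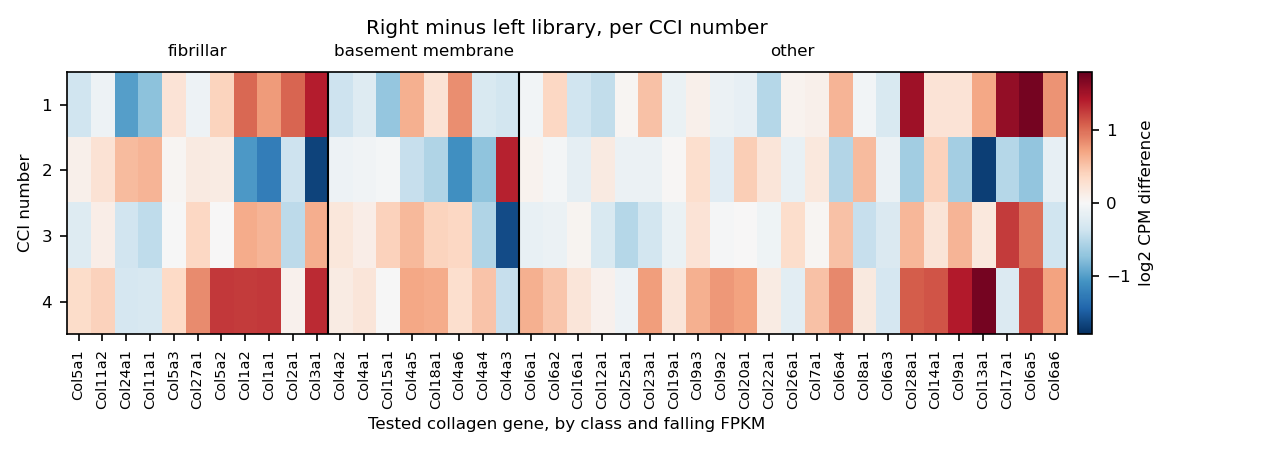
Right minus left difference in log2 CPM (colour; red means higher on the right) for each of 42 tested collagens in CCI numbers 1 to 4. The row of number 4 is mostly red (34 of 42), and Col1a1, Col1a2 and Col3a1 are red in numbers 1, 3 and 4 and blue in number 2.

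A pattern of right above left in numbers 1, 3 and 4 and below in number 2 was found in 11 of 42 collagens, against 12.5% of all tested genes. They were the interstitial chains Col1a1, Col1a2 and Col3a1, the basement membrane genes Col4a5, Col4a6 and Col18a1, and Col6a4, Col6a5, Col9a1, Col13a1 and Col28a1. Col4a1 and Col4a2, the abundant type IV chains, were not among them. Earlier results of these data had already set number 2 apart, so the pattern is a description.

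Col1a2 (ENSMUSG00000029661; chromosome 6, 4504814 to 4541544), the alpha 2 chain of type I collagen, was named after its values were seen, as were Col1a1 and Col3a1. Its level was 8.17, 14.98, 8.80 and 8.70 CPM in ipsilateral 1 to 4, 16.8, 7.25, 14.04 and 20.9 CPM in contralateral 1 to 4, and 13.8, 11.4, 13.9 and 16.7 CPM in naive 1 to 4. Ipsilateral 2 was high among the left libraries and contralateral 2 was the lowest library of all, so the groups overlapped. The right minus left differences were 1.03, -1.04, 0.67 and 1.26 in numbers 1 to 4, and the fitted log2 fold change was 0.54 (SE 0.29, edgeR adjusted p = 0.63).

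Col1a1 (ENSMUSG00000001506; chromosome 11, 94936224 to 94953042), its partner chain, lay at 3.60, 6.26, 3.39 and 3.35 CPM in ipsilateral, 6.20, 2.56, 5.26 and 8.25 CPM in contralateral, and 4.57, 5.53, 5.38 and 7.15 CPM in naive libraries 1 to 4. Ipsilateral 2 was again the highest left library and contralateral 2 the lowest of all, and the groups overlapped. Its log2 fold change was 0.42 (SE 0.31, edgeR adjusted p = 0.71). Col3a1 (ENSMUSG00000026043; chromosome 1, 45311538 to 45349706), the type III chain of extensible tissue, had few counts, with 1.09, 2.23, 1.15 and 1.14 CPM in ipsilateral, 3.07, 0.63, 1.87 and 3.04 CPM in contralateral, and 1.84, 1.12, 1.20 and 2.99 CPM in naive libraries. Number 2 again went the opposite way, with a right minus left difference of -1.67 beside 1.41, 0.65 and 1.34.

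Without both libraries of number 2, 2 of 43 tested collagens passed, against 1.8% of all genes (286 of 15919), and 14 of 43 had an unadjusted p under 0.05, against 17.6%. The 2 that passed were Col1a2 (log2 fold change 1.02, edgeR adjusted p = 0.0126) and Col1a1 (0.93, adjusted p = 0.038), while Col3a1 stood at 1.24 (adjusted p = 0.094), Col28a1 at 1.11 (0.0515) and Col6a5 at 1.51 (0.0563). In each of these genes number 2 was the one that ran the opposite way. Col1a1, Col1a2 and Col3a1 were also named after their values were seen. These p-values therefore follow a selection on the same data and are no independent test. Leaving out only contralateral 2 gave 0 collagens among 159 genes that passed. In the comparisons with naive cortex without number 2, 0 of 43 passed on either side (0.00628% of all genes for contralateral and 0.0251% for ipsilateral), and 5 of 43 had an unadjusted p under 0.05 on each side (8.73% and 7.47%). Without both libraries of number 4, the fold changes were 0.25 (Col1a2), 0.08 (Col1a1) and 0.32 (Col3a1).

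**Figure D3:**
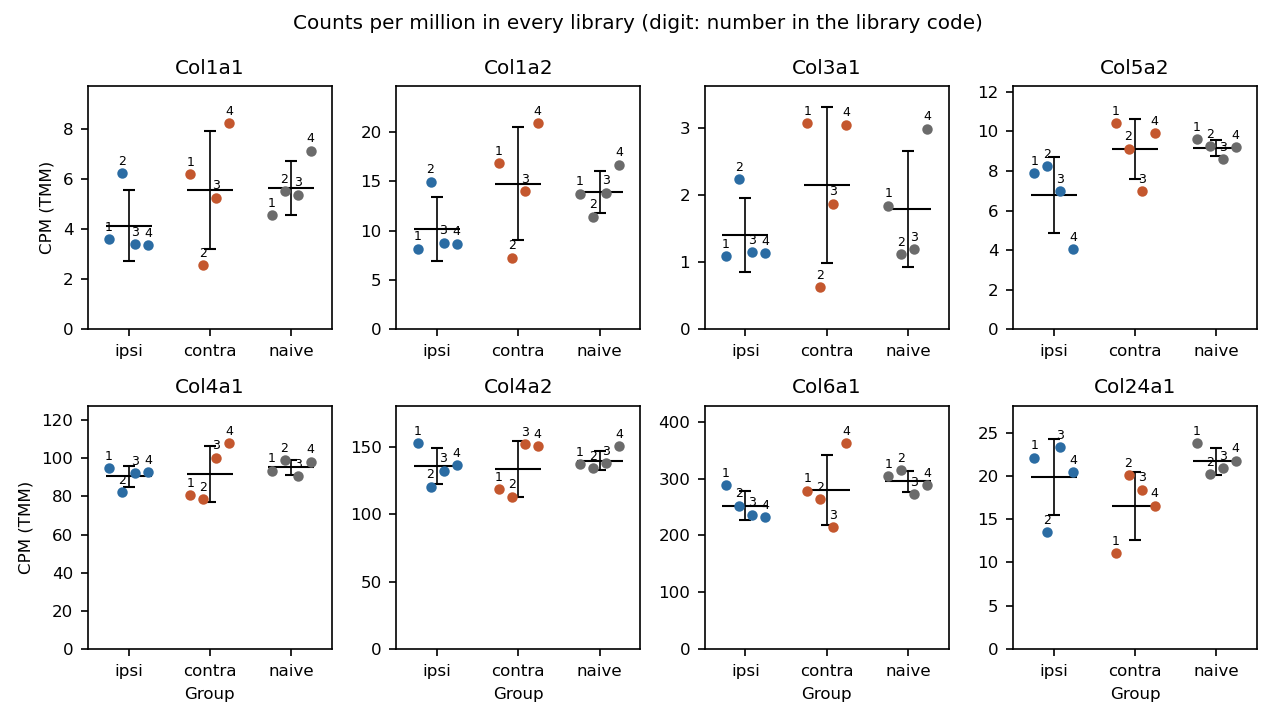
CPM of 8 collagens in every library; digits give the number in the library code, horizontal marks the group mean and bars the SD (n = 4). In Col1a1, Col1a2 and Col3a1 ipsilateral 2 is the highest of the left libraries and contralateral 2 the lowest of the right ones, while Col4a1 and Col4a2 vary little.

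Among the remaining fibrillar genes, Col5a2 (chromosome 1, 45374321 to 45503282), the alpha 2 chain of type V next to Col3a1, read 7.88, 8.24, 6.96 and 4.04 CPM in ipsilateral, 10.4, 9.13, 6.96 and 9.91 CPM in contralateral and 9.59, 9.24, 8.61 and 9.20 CPM in naive libraries. The ipsilateral values lay wholly below the naive ones, ipsilateral 4 farthest, and contralateral 3 was as low as ipsilateral 3. Fold changes were 0.42 (SE 0.185) between the sides and -0.43 (SE 0.185) for ipsilateral against naive, and neither passed (edgeR adjusted p = 0.592 and 0.972). Its partner Col5a1 differed by -0.05 (SE 0.10) between the sides, at 81.9 to 112 CPM in ipsilateral, 79.2 to 103 CPM in contralateral and 78.2 to 87.0 CPM in naive libraries. Col27a1, a fibrillar collagen of cartilage, had 15.1, 13.5, 11.6 and 9.44 CPM in ipsilateral and 14.2, 15.1, 15.1 and 17.2 CPM in contralateral libraries (0.31, SE 0.13, adjusted p = 0.592).

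Col24a1 and Col11a1, both fibrillar, ran the other way. Col24a1 was at 22.1, 13.5, 23.3 and 20.5 CPM in ipsilateral, 11.1, 20.1, 18.4 and 16.6 CPM in contralateral and 23.8, 20.2, 20.9 and 21.7 CPM in naive libraries. Contralateral 1 and ipsilateral 2 were low, and the highest contralateral value lay just below the lowest naive one. Col11a1 had 18.7, 13.3, 26.6 and 20.8 CPM in ipsilateral and 11.1, 20.3, 19.2 and 17.1 CPM in contralateral libraries, low in the same 2 libraries. In both genes right lay below left in numbers 1, 3 and 4 and above it in number 2 (0.57 and 0.61). Col11a2 (0.17, SE 0.10) and Col5a3 (0.18, SE 0.14), which join the same fibril types, did not pass between the sides.

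Basement membrane chains at high level differed little. Col4a1 measured 94.9, 82.2, 92.2 and 92.7 CPM in ipsilateral, 80.5, 78.6, 100.2 and 108 CPM in contralateral and 93.4, 98.9, 90.6 and 98.2 CPM in naive libraries, and Col4a2 was lowest in the same contralateral libraries, 1 and 2 (119 and 113 CPM). Between the sides the fold changes were 0.02 (SE 0.09) for Col4a1 and -0.02 (SE 0.10) for Col4a2. Col15a1 stood at -0.07 (SE 0.16), with contralateral 1 the lowest at 7.62 CPM. Col4a5 of the second type IV network (0.39, SE 0.19) and Col18a1, which yields endostatin (0.26, SE 0.22), had higher contralateral means, and neither passed (edgeR adjusted p = 0.61 and 0.74). Col18a1 shares part of its locus with Slc19a1, which had a mean of 245 counts, so some of its reads may not be its own.

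Of the type VI genes, Col6a1 (ENSMUSG00000001119; chromosome 10, 76708792 to 76726168) had 288, 252, 236 and 232 CPM in ipsilateral, 279, 264, 215 and 363 CPM in contralateral and 304, 314, 273 and 288 CPM in naive libraries. Contralateral 4 was the highest library and contralateral 3 the lowest. Col6a2 was likewise highest in contralateral 4 (60.7 CPM; 0.19, SE 0.10). Col6a5, at 1.44 CPM or less, had 0.29, 0.58, 0.35 and 0.57 CPM in ipsilateral and 1.21, 0.31, 0.79 and 1.44 CPM in contralateral libraries, a log2 fold change of 1.07 (SE 0.40, edgeR adjusted p = 0.592).

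Col14a1, a fibril-associated collagen, was the only one of 42 whose groups did not overlap between the sides (1.61% of all genes were higher and 1.33% lower without overlap). It had 2.11, 1.94, 1.96 and 1.25 CPM in ipsilateral and 2.52, 2.63, 2.32 and 2.88 CPM in contralateral libraries, a log2 fold change of 0.51 (SE 0.195, edgeR adjusted p = 0.592), and its naive libraries, at 2.68, 2.59, 1.73 and 2.05 CPM, spanned both. Among membrane-spanning and fibril-associated collagens of higher level, the differences between the sides were -0.14 (Col25a1, SE 0.25), 0.25 (Col23a1, SE 0.22), -0.01 (Col19a1, SE 0.18), -0.13 (Col12a1, SE 0.18), -0.06 (Col16a1, SE 0.09) and 0.30 (Col9a3, SE 0.15). None passed.

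Contralateral cortex was next compared with naive cortex. No collagen passed in edgeR (0 of 42, beside 0.0% of all genes), DESeq2 or limma voom, and 2 (edgeR), 3 (DESeq2) and 3 (limma voom) had an unadjusted p under 0.05, where edgeR gave 3.78% of all genes. Both edgeR ones were higher in contralateral cortex (1.92% of all genes were, and 1.86% lower). Positive fold changes were found in 23 of 42 (50.1% of all genes, 49.9% being negative), with a median of 0.04, which lay between -0.07 (without contralateral 4) and 0.11 (without contralateral 2) when single libraries were left out. Basement membrane genes had a negative fold change in 7 of 8 (median -0.07), but in 3 of 8 without contralateral 2 (median 0.02). That median was -0.01 without contralateral 1, -0.02 without naive 4, -0.11 without contralateral 3 or naive 1, and -0.145 without contralateral 4. Here 7 of 11 fibroblast markers (median 0.05) and 6 of 8 endothelial ones (0.07) had positive fold changes. So did 5 of 8 mural (0.09), 5 of 6 astrocyte (0.10) and 5 of 6 microglia markers (0.10). Oligodendrocyte (0.27) and striatal markers (0.48) were positive in 6 of 6 each, and choroid plexus in 2 of 2 tested (0.79). Blood had 1 of 5 (-0.20) and cortical neurons 2 of 8 (-0.09). No marker passed, and their part in the collagen values was not tested.

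Col28a1 (chromosome 6, 7997808 to 8192617), a collagen known from glia of peripheral nerve, had the smallest unadjusted p of the members. Its level was 2.69, 1.00, 2.32 and 3.38 CPM in contralateral, 1.51, 1.06, 1.08 and 1.23 CPM in naive and 0.86, 1.6, 1.5 and 1.53 CPM in ipsilateral libraries. Contralateral 1, 3 and 4 lay above every naive and ipsilateral library, and contralateral 2 below every naive one. The log2 fold change was 0.95 (SE 0.32, edgeR adjusted p = 1.0) against naive and 0.78 (SE 0.31, adjusted p = 0.592) between the sides. Col9a3, a type IX chain on fibril surfaces, had 13.2, 11.003, 14.4 and 12.2 CPM in contralateral and 8.81, 11.1, 10.1 and 8.85 CPM in naive libraries (0.39, SE 0.15, adjusted p = 1.0), overlapping only in contralateral 2 and naive 2. Part of its locus is shared with Tcfl5, which had a mean of 14.5 counts. Col24a1 was the single collagen whose contralateral libraries all lay below the naive ones (1.16% of all genes), and none lay wholly above them (1.04%), at -0.39 (SE 0.19, adjusted p = 1.0).

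**Figure D4:**
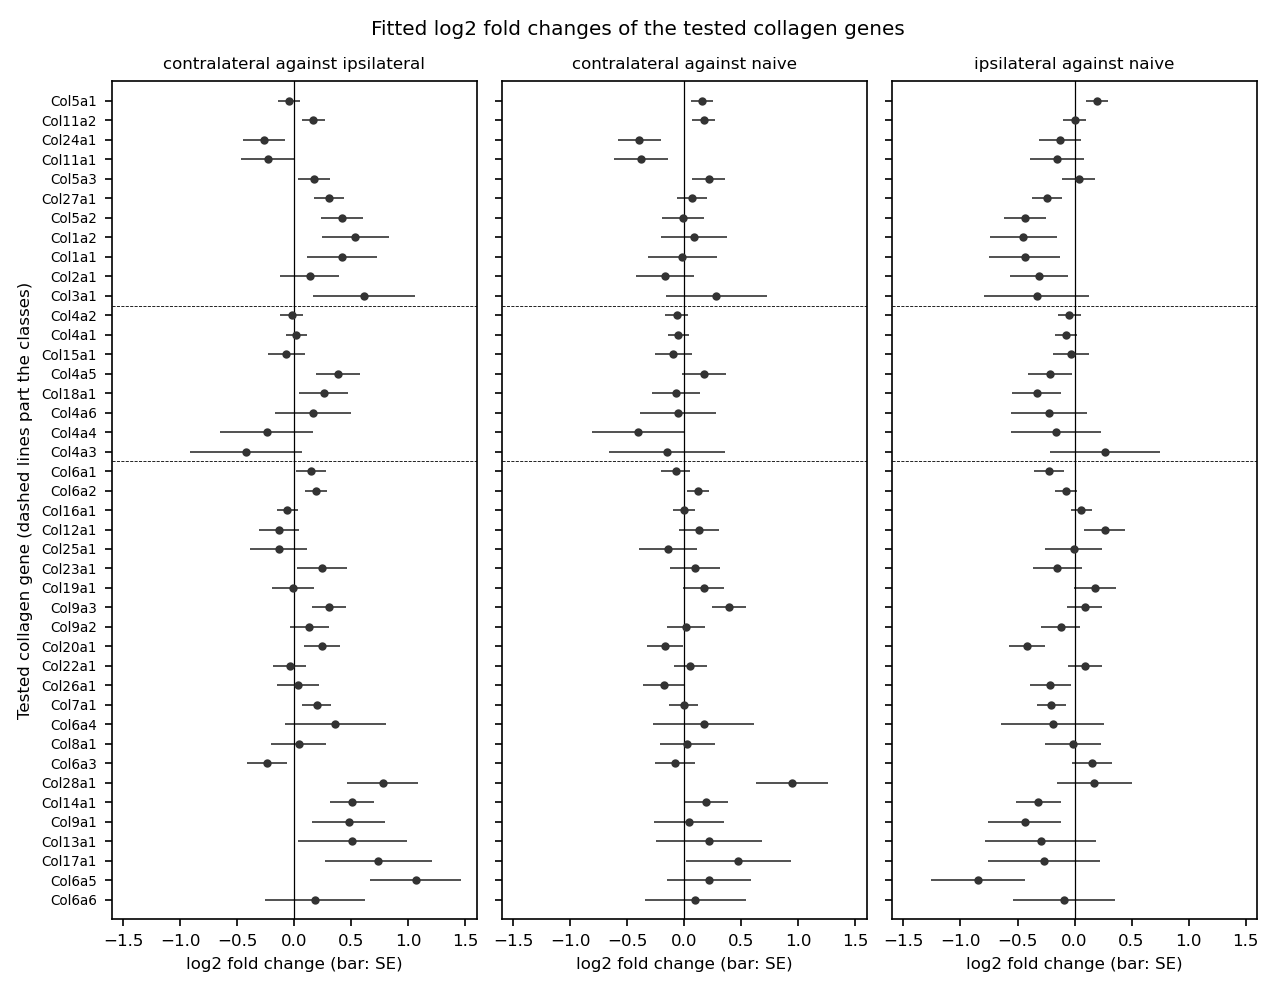
Fitted log2 fold changes with SE bars of the 42 tested collagens in the 3 comparisons, by class (dashed lines) and falling FPKM. None passed; Col28a1 stands out against naive (0.95), and the left panel and the right panel lean to opposite sides of 0 and share the ipsilateral libraries.

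Ipsilateral cortex against naive cortex gave 0 of 42 collagens in edgeR (0.0% of all genes), DESeq2 and limma voom, and 2 of 42 at an unadjusted p under 0.05 by each of the 3 tools (4.83% of all genes in edgeR). Both were lower in edgeR (2.96% of all genes were lower and 1.87% higher). Negative fold changes were seen in 31 of 42 (50.1% of all genes, 49.9% being positive), with a median of -0.15 and class medians of -0.24 (fibrillar), -0.12 (basement membrane) and -0.12 (other). The median was -0.085 without ipsilateral 4 (11 of 43 positive), -0.08 without naive 1 or naive 4, and -0.16 without number 2 (17 of 43 positive). The basement membrane median was -0.03 without ipsilateral 2 (3 of 8 positive), -0.07 without ipsilateral 3 or ipsilateral 4 and -0.06 without naive 2 or naive 4. For the other collagens it was -0.05 without ipsilateral 4 and -0.06 without ipsilateral 1, naive 1 or naive 4. The fibrillar median ranged from -0.32 to -0.18 without single libraries. Cell type markers in this comparison had negative fold changes in 10 of 11 for fibroblasts (median -0.54, 3 at an unadjusted p under 0.05), 8 of 8 for endothelium (-0.10), 7 of 8 for mural cells (-0.21), 5 of 5 for blood (-0.39), 5 of 6 for astrocytes (-0.19) and 5 of 6 for microglia (-0.12), and positive ones in 7 of 8 for cortical neurons (0.11). Oligodendrocyte markers also had positive ones in 6 of 6 (0.19), striatal markers in 4 of 6 (0.08) and choroid plexus markers in 1 of 2 tested (0.16). None of these markers passed in edgeR, and their part in the collagen values was not tested. Both group comparisons share the naive libraries, and the comparison between the sides shares its libraries with both.

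The 2 collagens with an unadjusted p under 0.05 were Col5a2, above, and Col20a1, a fibril-associated collagen at 5.54, 4.12, 4.43 and 3.30 CPM in ipsilateral and 5.30, 6.83, 5.14 and 5.92 CPM in naive libraries (-0.42, SE 0.16, edgeR adjusted p = 0.972). Ipsilateral 1 lay within the naive range. The locus of Col20a1 overlaps 9230112E08Rik, which had a mean of 315 counts. Col5a2 and Col6a5 were wholly below naive (2 of 42, against 2.77% of all genes) and none wholly above (1.95%), Col6a5 at -0.85 (SE 0.41). The interstitial chains had fold changes of -0.45 (Col1a2, SE 0.29), -0.44 (Col1a1, SE 0.31) and -0.33 (Col3a1, SE 0.46), and Col6a1 had -0.23 (SE 0.13). Col5a1 was above 0 (0.20, SE 0.10, adjusted p = 0.972).

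Genes that make, bind or break collagen were read in 6 lists, and 0 members passed in any comparison. Of all tested genes, 51.1% had a positive fold change between the sides. Against naive cortex the share was 50.1% for contralateral and 49.9% for ipsilateral cortex. The marker lists of non-neuronal cells, given above, were also mostly positive between the sides, so that lean was not particular to these lists. Between the sides, 16 of 20 folding and modifying enzymes had a positive fold change (median 0.11), among them the prolyl hydroxylase P3h1 (0.25, SE 0.10) and the collagen chaperone gene Serpinh1 (0.34, SE 0.14). So did 9 of 11 tested processing and cross-linking genes (median 0.20), with Adamts3 at 0.20 and Loxl3 at 0.38, and 7 of 8 receptors (median 0.10), with the integrin gene Itga1 at 0.26 and Mrc2, which takes up collagen, at 0.25. Small leucine-rich proteoglycans, which coat fibrils, had the widest median, 0.60 (7 of 7 positive), with Prelp at 0.60 (SE 0.16) and Bgn at 0.46 (SE 0.19). Basement membrane partners were positive in 13 of 16 (median 0.14), with Nid2 at 0.46 and Lama1 at 0.72, and proteases and inhibitors in 7 of 8 (median 0.20), with Timp3 at 0.24 and the collagen-cleaving Ctsk at -0.29. For each of these the edgeR adjusted p was 0.592 or more.

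Against naive cortex the proteoglycans were positive in 5 of 7 on the contralateral side (median 0.14; Ogn -0.49, Bgn 0.15) and in 0 of 7 on the ipsilateral side (median -0.59; Prelp -0.59, Ogn -0.999). The enzymes were positive in 12 of 20 (median 0.02; Mia3 -0.14, Plod1 0.22) and 4 of 20 (-0.09; Fkbp10 -0.23, Plod2 -0.19), and processing genes in 8 of 11 (0.07; Adamts14 0.62, Tll1 -0.34) and 3 of 11 (-0.04; Tgm2 -0.44, Pcolce2 0.27). Receptors were positive in 8 of 8 (0.07; Lair1 0.20, Mrc2 0.17) and 2 of 8 (-0.06; Itga1 -0.18, Ddr1 -0.10), basement membrane partners in 13 of 16 (0.08; Lama5 0.24) and 4 of 16 (-0.07; Nid2 -0.40), and proteases and inhibitors in 5 of 8 (0.04; Ctsk 0.21, Timp3 0.14) and 2 of 8 (-0.09; Ctsk 0.49, Mmp2 -0.48). None of these passed (edgeR adjusted p = 1.0 for the contralateral and 0.865 or more for the ipsilateral comparison).

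Right minus left differences of cell type markers were set beside those of the collagens, whose medians in numbers 1 to 4 were 0.25, 0.09, 0.00 and 0.42 (fibrillar), -0.25, -0.26, 0.29 and 0.26 (basement membrane) and 0.09, -0.10, 0.01 and 0.64 (other). The 14 fibroblast markers, of which 11 were tested and none was at 0 in every library, summed to 52.3 to 67.7 CPM in ipsilateral, 44.3 to 96.7 CPM in contralateral and 63.4 to 86.3 CPM in naive libraries. Right minus left, their median was 0.88, -0.74, 0.74 and 1.179 in numbers 1 to 4. This was the sign order of Col1a1, Col1a2 and Col3a1 and of 11 of 42 collagens in all. The median of the class of other collagens and that of all 42 had it too, at only 0.01 and 0.04 in number 3. The fibrillar and basement membrane medians did not have it. The proteoglycans gave 0.79, -1.04, 0.82 and 1.25. Endothelial markers (-0.02, -0.09, 0.30 and 0.56) and mural markers (0.05, -0.27, 0.35 and 0.51) were highest in number 4 and lowest in number 2. Astrocyte markers (0.22, -0.11, 0.36 and 0.59) and microglia markers (0.18, -0.10, 0.27 and 0.48) showed the same signs as fibroblast markers, and cortical neuron markers the opposite ones (-0.39, 0.08, -0.15 and -0.43). Blood genes followed the fibroblast signs (0.35, -0.23, 0.37 and 0.70), choroid plexus markers stood at 9.45 CPM in sum or less, oligodendrocyte markers differed by 0.04, 0.62, -0.42 and 0.00, and striatal markers by 1.69, 0.10, -0.20 and -0.21. The part of these cell type differences in the collagen values was not tested.

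**Figure D5:**
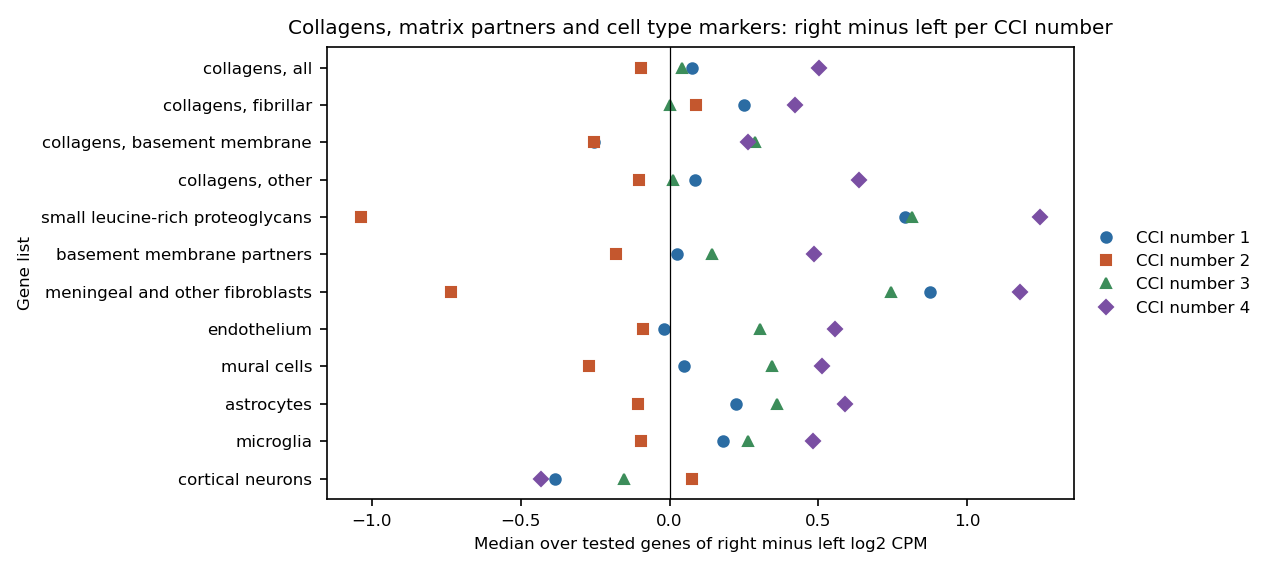
Median right minus left difference in log2 CPM over the tested genes of each list, 1 symbol per CCI number. Number 2 lies left of 0 for fibroblast markers (-0.74) and proteoglycans (-1.04), where the other numbers lie right of it, and number 4 lies farthest right in both.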

How the data were processed

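The authors deposited a table of raw read counts for each gene. It also holds the authors' FPKM, scaled by gene length and library total. In 9042 genes with at least 200 counts everywhere, the count to FPKM ratio departed from a single library factor by at most 3.1e-06. Per the submitters' processing notes HISAT2 2.0.4 and GRCm38/mm10 were used, with no roles stated; the counting program, strand use and annotation are not given in sources used here. FPKM was used only to set levels of different genes side by side. The test was that of edgeR 4.0.16 under R 4.3.3 (TMM, filterByExpr, robust quasi-likelihood fit of all 12 libraries in 3 groups without a block, two-sided, Benjamini-Hochberg over all 15808 tested genes). DESeq2 1.42.0, limma 3.58.1, other scaling and filters, fits of 2 groups, a replicate block and leaving out libraries were alternatives. Each SE was the absolute fold change over the root of F, and right minus left differences from log2 CPM with a prior count of 2. The fit was tested on simulated data.

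Members and lists were chosen with earlier results of these data known. Named are the tested members of highest mean FPKM (5 fibrillar, 5 basement membrane, 8 other), any that passed, and the 3 of smallest unadjusted p per comparison, and per partner list the 2 of smallest p. Members named outside this rule were chosen after their values were seen. The values of 1 gene of the basement membrane partner list are not reported here.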

Additional observations from a re-analysis of the deposited data

Results flagged for a closer look

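In 6 of 78 sets of 4 libraries (26 named collagens in 3 groups), 1 library stood far from the other 3 by Dixon's criterion, which chance meets in about 1 of 20 sets. Of these, 3 were in ipsilateral 2, on genes added after their values were seen: Col1a1 at 6.26 CPM (others 3.35 to 3.60), Col1a2 at 15 CPM (others 8.17 to 8.80) and Col3a1 at 2.23 CPM (others 1.09 to 1.15). Col16a1 was at 62.0 CPM in ipsilateral 1 (others 48.9 to 50.6) and Col28a1 at 0.857 CPM in the same library (others 1.5 to 1.6). Col25a1 was at 26.7 CPM in contralateral 3 (others 49.2 to 49.9). For Col14a1 every contralateral library lay above the naive mean and every ipsilateral library below it; the difference between the sides was 0.508 (log2) and did not pass (edgeR adjusted p = 0.592).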

How the results depend on the processing

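No collagen passed in any comparison under any alternative except without both libraries of CCI number 2, where 2 passed between the sides. Of all genes, 0 passed between the sides in the fit of all libraries and 286 without number 2; leaving out single libraries gave 0 to 159. For contralateral against naive the counts were 3 (DESeq2), 1 (only 2 groups), 1 (without number 2), 3 (without number 4) and 0 to 2 without single libraries; for ipsilateral against naive they were 9, 7, 4, 3 and 0 to 1. With the replicate block 1 gene passed in each comparison with naive, and with the block in only the 2 groups compared, an alternative chosen after seeing the data, 2 (contralateral) and 6 (ipsilateral); no collagen was among them, and between the sides 0 genes passed. The labels do not say that a number is one mouse, so the numbers were not treated as pairs in the tests. A later check found that right and left libraries of one number did not deviate together (correlations of -0.14 to 0.06 over genes, best match with its own number for 0 of 4). The ipsilateral median of -0.15 was -0.088 without number 4 and ranged from -0.164 to -0.081 without single libraries. Among 1557 alternative values of named collagens, 118 changed sign with no value past the threshold, and 2, Col1a1 and Col1a2 without number 2, newly passed. Low counts, as for Col6a5 (1.44 CPM or less), limit what could be detected.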
